A study of Monodelphis domestica with 25 samples.

Results

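The transcripts described here are 82 of the 22059 measured in whole blood that was kept in culture. The blood came from LSD strain animals of Monodelphis domestica, the gray short-tailed opossum, a marsupial bred for the laboratory. They rose at least 4-fold in mean level from fresh blood to 12 h of culture and were still above 0.5 times their 12 h level at 72 h. They were chosen from the untreated time course by their mean level, in CPM (counts relative to the library total, here scaled by the TMM method), over 3 libraries per time with 0.1 CPM added. The mean at 12 h had to be at least 4 times that at 0 h and at least 10 CPM, and the mean at 72 h above 0.5 times that at 12 h. A further 4 transcripts that met these limits were left out by name. The values at 0, 12 and 72 h chose the 82 transcripts, so the rise itself is described without a test.

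In the time course, untreated blood was sequenced at 0, 12, 24, 48 and 72 h in 15 libraries, 1 per time for each of the identifiers A0036, A0039 and A3538. Its blood was diluted 1:2 or 1:4 in RPMI-1640 medium, and the labels do not tie a dilution to a library. The treatment experiment, diluted 1:2, held 10 libraries. These were 2 controls at 12 h (numbers R1 and R2), 2 controls at 24 h (R2 and R3), perfluorooctanoic acid (PFOA) at 400 and at 800 µM with 1 library each at 12 h (R2) and 24 h (R1), and GenX at 1200 µM at 12 h (R3 and R4). The protocol gives 0.1% dimethyl sulfoxide for treated and control cultures alike, while the controls are labelled untreated. The labels name no age or sex, and they do not say whether the R numbers of identifier A9394 are animals or wells, so the spread behind each p-value is that of these cultures and may be technical only. Only samples with good RNA were sequenced, per the protocol.

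Whole blood kept in a dish holds red cells, platelets and several kinds of white cell in their own plasma. Outside the body these cells meet plastic, medium and a new gas phase, and white cells are known to switch on stress and activation genes while short-lived cells such as neutrophils die. PFOA is a perfluorinated carboxylic acid that persists in the body and binds blood proteins, and GenX is a shorter ether acid that replaced it in manufacture. In bulk RNA from such a mixture, a change in the number of cells of a type and a change in RNA per cell cannot be told apart. The files name the 82 transcripts by Ensembl identifier only, and 0 of the 82 could be matched in the RefSeq gene table at hand, so their genes and functions are not given and cell type markers were not analysed here.

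Library totals were 51349217 to 336472834 counts in the time course. In the treatment experiment the controls had 4487453 to 11685427, the GenX libraries 3654215 and 6433771, and the PFOA libraries 366269 to 4027470. A count of 3 was worth 0.0170 to 0.0670 CPM in time course libraries and 0.254 to 8.49 CPM in those of the treatment experiment. These floors cover counting error only, and low values in the shallow PFOA libraries are therefore coarse.

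The median level of the 82 transcripts was 3.70 CPM in fresh blood and 42.5 CPM after 12 h, and went on to 66.3, 68.3 and 107 CPM after 24, 48 and 72 h. Fresh blood levels were not low throughout, as the 0 h mean was over 10 CPM in 23 of the 82. The ratio of the 12 h to the 0 h mean had a median of 9.58 and ran from 4.04 to 1828. The ratio of the 72 h to the 12 h mean had a median of 1.67 and ran from 0.520 to 70.3. The 72 h mean was more than 2 times the 12 h mean in 33 transcripts and more than 4 times in 17. The 12 and 72 h means were part of the choice, which left out ratios of 0.5 and below. These counts are therefore a description only, and a higher 72 h mean does not imply a steady climb from 12 h. At the limits of the choice, the lowest ratios of 12 to 0 h inside were 4.04 and 4.1 and the nearest outside were 3.99 and 3.83. The lowest 12 h levels inside (with 0.1 added) were 10.1 and 10.6 CPM, against 9.23 and 8.87 CPM outside. The lowest ratios of 72 to 12 h inside were 0.520 and 0.521, against 0.456 and 0.438 outside.

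Within this shared outline the courses differed. The mean was highest at 12, 24, 48 and 72 h in 12, 9, 27 and 34 transcripts, and the mean was higher at every step in 14 transcripts. A dip in the middle, with the 24 and 48 h means both below those at 12 and 72 h, was present in 16 transcripts. A late drop was present in 11, whose mean was highest at 48 h and more than 2-fold lower at 72 h. The mean at 24 h was below 0.5 times the 12 h mean in 8 transcripts, and the mean at 48 h in 14.

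**Figure D1:**
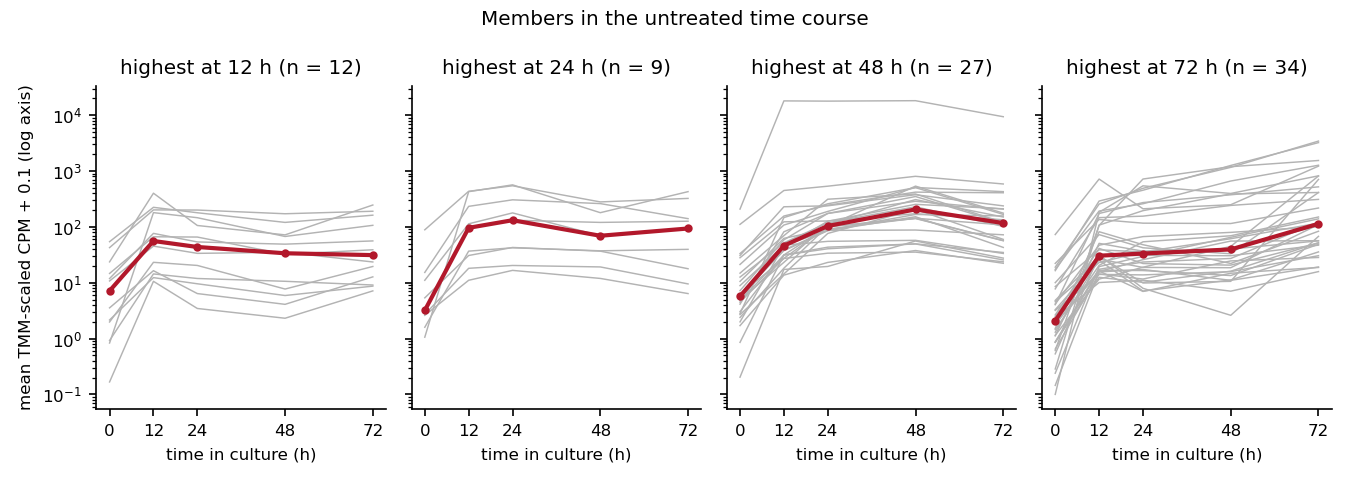
Mean level of each of the 82 transcripts (grey lines, TMM-scaled CPM + 0.1, log axis) against time in culture in h, split by the time of the highest mean, with the median of each panel in red. The panels hold 12, 9, 27 and 34 transcripts, and the red line rises from 0 to 12 h in all 4 panels and on to 72 h in the last.

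The identifiers can be read one by one. The 12 h library was above the 0 h library of the same identifier in all 3 identifiers for 80 transcripts, and at least 4-fold above it in 3 identifiers for 53, in 2 for 27 and in 1 for 2. All 12 h libraries lay above all 0 h libraries in 80 transcripts, as did the libraries of 24, 48 and 72 h in 80, 77 and 79. Over all transcripts with a count in the libraries compared, 16.3%, 17.8%, 22.4% and 26% lay above all 0 h libraries in this way at 12, 24, 48 and 72 h, and nothing is read from the 82 here because fresh blood was part of the choice. The 2 transcripts that were not higher at 12 h in every identifier, named after their values were seen, were ENSMODT00000020468 and ENSMODT00000024896, and in both the exception was A3538. ENSMODT00000020468 went from 5.86, 1.56 and 6.97 CPM at 0 h to 25.4, 41.5 and 2.37 CPM at 12 h (A0036, A0039 and A3538, the order used below). It stood at 471, 403 and 50.3 CPM at 48 h, so A3538 was the lowest there too. ENSMODT00000024896 went from 2.52, 1.23 and 4.02 CPM to 14.3, 27.5 and 1.06 CPM, and to 301, 295 and 21.5 CPM at 48 h. The identifiers took different places across the set. In scaled CPM A0036 held the highest of the 3 libraries for 40, 47 and 51 transcripts at 12, 24 and 48 h, and A0039 for 41 at 72 h. The unscaled share of counts held by the set without ENSMODT00000000832 gave another order. By that share A0039 was the highest at 12 and 24 h and A0036 at 48 and 72 h.

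A single transcript, ENSMODT00000000832, carried much of the total. Its level went from 278, 236 and 111 CPM in fresh blood to 23484, 7921 and 22801 CPM at 12 h. It then held at 18256, 14683 and 20762 CPM at 24 h and 19445, 13123 and 22110 CPM at 48 h, before 10160, 5208 and 12853 CPM at 72 h. It was far above the other 81 at 12 h. In scaled CPM A0039 was the lowest identifier from 12 h on, and the ratio of 72 to 12 h, 0.521, was the second lowest of the set. The picture depends on the scaling. As an unscaled share of counts, ENSMODT00000000832 made up 1.78%, 1.01% and 1.10% at 12 h and 1.83%, 2.155% and 1.82% at 24 h. The shares were 2.52%, 1.88% and 3.15% at 48 h and 1.36%, 0.545% and 1.80% at 72 h. By share A0039 was the highest at 24 h, and all 3 identifiers rose from 12 to 48 h. Together the 82 transcripts made up 0.0759% ± 0.0309 (SD, n = 3) of the counts in fresh blood and 1.91% ± 0.522 after 12 h. After 24, 48 and 72 h they made up 3.10% ± 0.662, 4.55% ± 0.621 and 3.99% ± 0.598. Without ENSMODT00000000832 the shares were 0.0598% ± 0.0208, 0.609% ± 0.203, 1.16% ± 0.517, 2.03% ± 0.649 and 2.75% ± 0.328, which was higher at 72 h than at 48 h, unlike the share of the whole set.

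**Figure D2:**
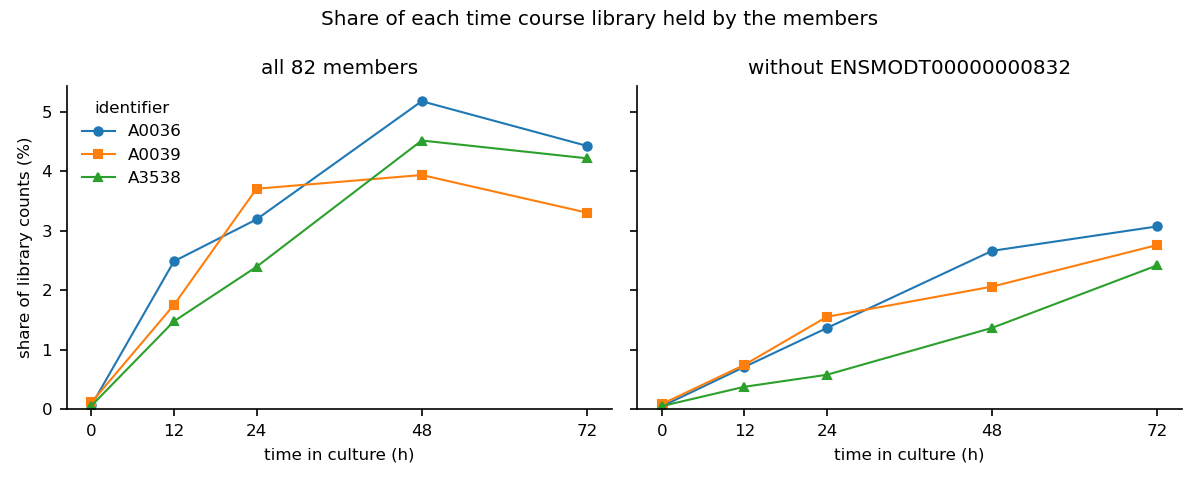
Share of each time course library's counts (percent) held by the 82 transcripts, left, and by the set without ENSMODT00000000832, right, against time in culture in h, with 1 line per identifier. All 3 identifiers climb from 0 to 12 h in both panels, and from 48 to 72 h the lines fall on the left and rise on the right.

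The second highest at 12 h, ENSMODT00000002205, showed the dip. Starting from 70.0, 69.6 and 79.0 CPM, it reached 734, 370 and 1054 CPM at 12 h. It was back at 231, 210 and 192 CPM at 24 h and 306, 232 and 210 CPM at 48 h, and stood at 1710, 1157 and 810 CPM at 72 h. At 24 and 48 h every library was below every library of 12 and 72 h.

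The 2 largest ratios of 12 to 0 h belonged to transcripts with no count in at least 2 of the 3 fresh libraries. ENSMODT00000008242 was without a count in all 3 fresh libraries and stood at 203, 111 and 234 CPM at 12 h. Against 3 counts over the 3 fresh libraries together, its 12 h mean was at least 15163-fold higher. Even numbers made up 71.0% of the small values (1 to 12) of this table and 70.9% of those of the other, so 3 counts may stand for fewer independent fragments, and bounds and expected counts given here may be too high. It reached 1118, 897 and 451 CPM at 72 h. ENSMODT00000026390 went from 2.88, 0 and 0 CPM in fresh blood to 909, 321 and 51.6 CPM at 12 h. The order A0036, A0039, A3538 stayed for ENSMODT00000026390 at every time from 12 h on, with 1362, 309 and 27.3 CPM at 24 h, 491, 41.9 and 6.27 CPM at 48 h and 868, 353 and 62.1 CPM at 72 h.

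The largest ratios of 72 to 12 h came from high values at 72 h. ENSMODT00000026369 started from 0.931, 0.398 and 1.81 CPM, reached 10.2, 10.1 and 14.3 CPM at 12 h and 40.2, 41.6 and 52.3 CPM at 48 h, and stood at 948, 852 and 650 CPM at 72 h. Its ratio of 70.3 rested on all 3 identifiers. That of ENSMODT00000021322, 23.5, rested mainly on A0039: the values were 35.5, 7.03 and 47.7 CPM at 12 h, 6.63, 6.51 and 18.3 CPM at 48 h and 42.3, 1923 and 161 CPM at 72 h. At the other end, ENSMODT00000004231 went from 11.3, 10.7 and 9.99 CPM at 0 h to 37.4, 51.3 and 46.8 CPM at 12 h. It was at 27.6, 13.1 and 29.6 CPM at 72 h, a ratio to 12 h of 0.520, still above every 0 h library.

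The step from 24 to 48 h was the only one in the time course that used no library behind the choice of the 82. None of them passed edgeR's quasi-likelihood test at an adjusted p under 0.05 (0 of 82 tested, with 8 of 15524 transcripts, 0.0515%, called in all). At an unadjusted p under 0.05 there were 13 of 82 (15.9%), against 15.6% of all transcripts tested, a share near the background. The median log2 fold change was 0.18 over the 82 and 0.00 over all, and leaving out A0036 changed the former, to 0.04 when its 48 h library was dropped and to 0.37 when its 24 h library was. ENSMODT00000001417, one of the 14 with a higher mean at every step, went from 542, 522 and 298 CPM at 24 h to 1826, 1186 and 768 CPM at 48 h. All 48 h libraries of ENSMODT00000001417 lay above all 24 h libraries, with a log2 fold change of 1.45 (SE 0.328, adjusted p = 0.0658, edgeR). ENSMODT00000017773 went from 72.2, 60.5 and 64.4 CPM at 24 h to 28.6, 27.9 and 40.1 CPM at 48 h, again without overlap (log2 fold change -1.05, SE 0.219, adjusted p = 0.0658, edgeR). Libraries of the same identifier deviated together, and with the identifier as a block 4 of the 82 were called, 3 higher and 1 lower, against 2.96% of all transcripts. ENSMODT00000001417 (1.43, adjusted p = 0.0334) and ENSMODT00000017773 (-1.08, adjusted p = 0.0164) were among them in the blocked edgeR fit. DESeq2 called 5 of the 82, against 5.65% in all, and leaving out the 48 h library of A3538 gave 3 calls, against 1.98%.

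The treatment experiment was not used for the choice, so it shows the same transcripts in other cultures of opossum blood. They stood far lower in its 12 h controls than at 12 h of the time course, in tables that were normalized separately. The mean of the 12 h controls was below the 12 h mean of the time course in 75 of the 82 (91.5%), with a median log2 difference of -3.49, or 11.3-fold lower. It was more than 8-fold lower in 46 (56.1%). Over all 7666 transcripts with at least 10 CPM at 12 h of the time course, the median log2 difference was 0.57, 24.9% were lower and 2.74% were more than 8-fold lower. For 59 of the 82 the 12 h controls were nearer to the 0 h than to the 12 h level of the time course on the log scale (72%, against 43.3% of the 7666). The 12 h level of the time course chose the 82, so these figures carry no test. Library totals were lower in the treatment experiment, the identifiers were others and the dilutions may have been. The protocol also gives 0.1% dimethyl sulfoxide for the controls of the treatment experiment, while the blood of the time course was untreated. The part of each in the gap was not tested.

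**Figure D3:**
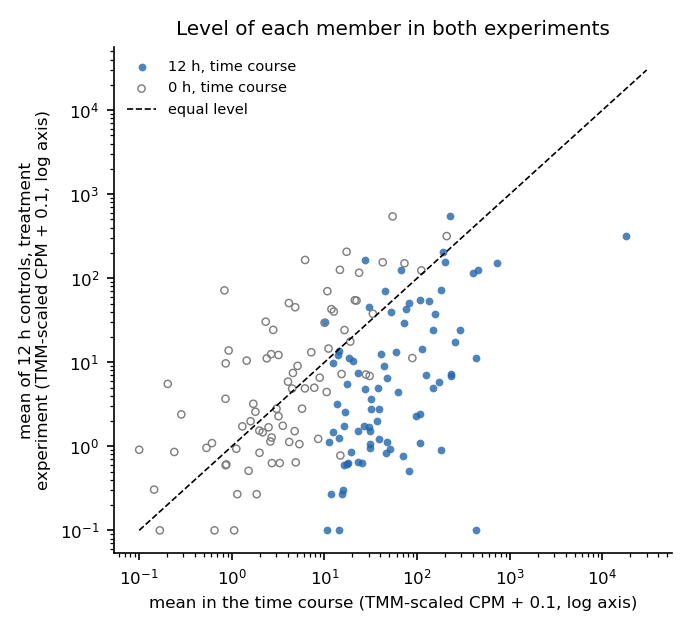
Mean level of each of the 82 transcripts in the 12 h controls of the treatment experiment (vertical) against its mean in the time course at 12 h (filled) and 0 h (open), both as TMM-scaled CPM + 0.1 on log axes. Of the filled points, 75 lie below the dashed line of equal level, while the open points lie on both sides of it.

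ENSMODT00000000832, the highest of the 82 at 12 h of the time course, was at 318 and 316 CPM in the 12 h controls and at 58.1 and 89.9 CPM in the 24 h controls. ENSMODT00000026390 had no count in either 12 h control, and ENSMODT00000008242 was at 0.604 and 1.02 CPM there. The mean of the 12 h controls was at least 10 CPM for 31 of the 82 and under 1 CPM for 20. The set held 0.249% to 0.361% of the counts of each control, 0.236% and 0.253% of the GenX libraries and 0.200% to 0.459% of the PFOA libraries. Each of the 82 had a count in at least 1 treatment library, and 37 had a count in all 10.

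From 12 to 24 h the controls changed in both directions. Of the 82, 62 passed the filter on low counts and 20 were not tested. In edgeR's quasi-likelihood test on the 4 controls, 15 of the 62 (24.2%) were called, against 18.2% of all 11937 transcripts tested. Of these, 5 were higher at 24 h (8.71% of all transcripts tested were) and 10 lower (9.52%). DESeq2 called 17 of the 62, against 17.3% in all. The median log2 fold change was 0.04 over the 62 and 0.01 over all. Without the 24 h control R3, which leaves 1 library at 24 h, it was -0.39 over those of the 82 then tested and -0.01 over all. The 12 h controls held 8902853 and 11685427 counts and the 24 h controls 4487453 and 5304715, and the part of this depth difference in the result was not tested.

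ENSMODT00000017557 was at 165 and 67.1 CPM in the 12 h controls and at 354 and 657 CPM in the 24 h controls, a rise without overlap (log2 fold change 2.18, SE 0.387, adjusted p = 0.00375, edgeR). ENSMODT00000000053 rose from 1.21 and 0.509 CPM at 12 h to 4.81 and 5.52 CPM at 24 h (2.67, SE 0.688, adjusted p = 0.0209, edgeR). The call of ENSMODT00000000053 was lost without the 12 h control R2 (adjusted p = 0.152, edgeR) or the 24 h control R3 (0.0816). ENSMODT00000030013 fell from 76.8 and 66.4 CPM to 11.1 and 6.80 CPM, a log2 fold change of -2.95 (SE 0.285, adjusted p = 0.000275, edgeR). ENSMODT00000008915 fell from 11.47 and 10.6 CPM to 1.88 and 1.29 CPM (-2.74, SE 0.496, adjusted p = 0.00412, edgeR).

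In the time course the same step often went the other way. Among the 15 called, 6 were lower in the controls and higher in the time course means, 5 were higher in the controls and lower in the time course, 4 were lower in both and 0 were higher in both. Over all 2176 transcripts called in the controls, 642 were higher in both, 699 lower in both, and 437 and 389 went opposite ways. For 9 of the 15 all 3 identifiers moved against the controls. In the time course ENSMODT00000008915 went up from 25, 23.0 and 6.32 CPM at 12 h to 115, 180 and 16.4 CPM at 24 h, where the controls fell. ENSMODT00000000053 went down there from 48.7, 3.18 and 40.4 CPM to 5.34, 1.67 and 16.5 CPM, where the controls rose. ENSMODT00000017557 went down there from 415, 659 and 130 CPM to 110, 138 and 70.5 CPM. ENSMODT00000004231, which rose by 0.64 on the log2 scale in the controls (adjusted p = 0.0421, edgeR), went down in the time course from 37.4, 51.3 and 46.8 CPM to 27.4, 37.4 and 35.7 CPM. As a description, Pearson's r between the log2 ratio of the time course means and the fitted log2 change in the controls was -0.45 across the 62 transcripts and 0.12 across all 11937 tested. These are correlations across transcripts that share their libraries, the 12 h mean of the time course chose the 62, and the difference between the experiments was not tested in a model.

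**Figure D4:**
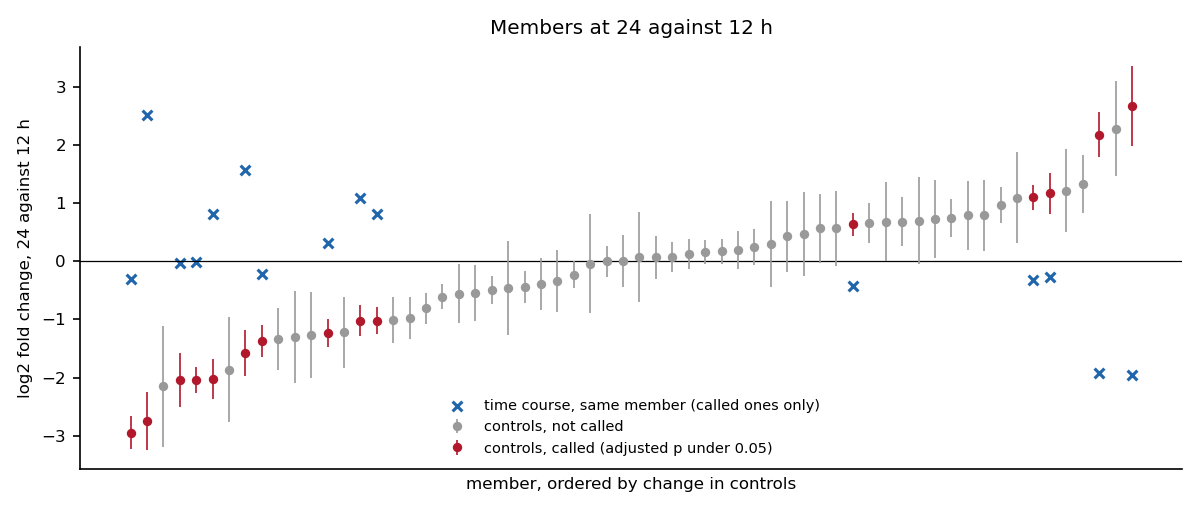
Fitted log2 fold change of 24 against 12 h in the controls for each of the 62 tested transcripts (points, with bars of 1 SE, called ones in red), ordered by size, with the log2 ratio of the 24 to the 12 h mean of the time course for the 15 called (blue crosses). The crosses lie below 0 for the 5 called transcripts that were higher at 24 h in the controls, and 6 of the 10 called lower have crosses above 0.

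PFOA gave no called transcript among the 82. Of these 63 were tested and 19 were not, and 0 passed edgeR's quasi-likelihood test of PFOA against control over both doses and times (10 of 12565 transcripts, 0.0796%, were called in all). At an unadjusted p under 0.05 there were 13 of 63 (20.6%), against 15.7% of all. DESeq2 called 8, 3 higher and 5 lower, against 5.84% in all. The median log2 fold change was 0.12 over the 63 and -0.04 over all, and it was 0.12 too with the 2 tested transcripts that had no PFOA count set to the bound that 3 counts allow. The sign of this median was not stable: it was -0.22 in the 12 h libraries alone, 0.83 in the 24 h libraries alone, -0.19 without the filter and -0.25 to 0.32 leaving out 1 library. At 24 h both PFOA libraries carry the number R1 and the controls R2 and R3, so number and treatment cannot be told apart there. Within PFOA the 12 h libraries are R2 and the 24 h libraries R1, so number and time cannot be told apart either. Without the filter 8 of the 82 were called, against 3.49% of all transcripts. Leaving out the PFOA library at 800 µM and 24 h, the shallowest with 366269 counts, gave 6 calls, all lower, against 0.876% of all transcripts.

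Counted by library rather than by model, 0 of the 82 were higher in all 4 PFOA libraries than in all 4 controls (1.07% of 18163 transcripts with a count were), and 9 of 82 (11%) were lower (5.48% of all were). Of these 9, 7 had no count in any PFOA library. At the control mean, between 4.24 and 36.5 counts would have been expected for them over the 4 PFOA libraries, so depth limits what a 0 shows for the lower ones. ENSMODT00000020074 was the best covered of the 7. It was at 4.95 and 6.61 CPM in the 12 h controls, at 2.93 and 4.6 CPM in the 24 h controls, at 0 in all 4 PFOA libraries and at 4.89 and 3.97 CPM with GenX. In the 24 h PFOA libraries 3 counts were worth 3.67 CPM (400 µM) and 8.49 CPM (800 µM), so the 0 at 24 h shows little. Against 3 counts over the PFOA libraries together ENSMODT00000020074 was at least 12.2-fold lower with PFOA (edgeR adjusted p = 0.0988, DESeq2 adjusted p = 0.00204). Without the 800 µM library at 24 h, ENSMODT00000020074 was called by edgeR (adjusted p = 0.0280). Its levels in the time course were 209, 111 and 201 CPM at 12 h, against 799, 496 and 269 CPM at 72 h.

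ENSMODT00000030638 had the smallest unadjusted p among those with higher values under PFOA. It was at 15.7 and 11.7 CPM in the 12 h controls and at 28.3 CPM (400 µM) and 36.4 CPM (800 µM) with PFOA at 12 h. At 24 h it was at 19.9 and 39 CPM in the controls and at 60.0 CPM (400 µM) and 110 CPM (800 µM) with PFOA. Within each time both PFOA libraries lay above both controls, and across times the groups overlapped (log2 fold change 1.48, SE 0.304, adjusted p = 0.0898 by edgeR and 0.00113 by DESeq2). At 24 h the PFOA libraries (R1) and the controls (R2 and R3) also differ in number, which cannot be told apart from treatment there. ENSMODT00000030638 also rose from 12 to 24 h in the controls (log2 fold change 1.17, adjusted p = 0.0386, edgeR).

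Each control lacked a count for 3 to 13 of the 82, the GenX libraries for 9 and 10, and the PFOA libraries for 19 to 30, beside totals that were lower in 3 of the 4 PFOA libraries than in any other library. The fourth, at 400 µM and 12 h, held 4027470 counts and lacked 19 of the 82, while the GenX library R4 held 3654215 and lacked 10. The share of all transcripts without a count in the same libraries is not given here, so nothing about the 82 is read from these counts. With every library thinned to 366269 counts, 30 of the 82 could be tested and 0 were called, as were 0 of all 8095 transcripts tested (0%), so the thinned fit says nothing about the 82.

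GenX, at 1200 µM and 12 h, also gave 0 calls among the 63 tested (1 of 12565 transcripts, 0.00796%, was called in all by edgeR). At an unadjusted p under 0.05 there were 5 of 63 (7.94%), against 6.82% of all. DESeq2 called 1, against 0.501% in all, and without the filter 1 of the 82 was called, against 1.07% of all. The median log2 fold change was 0.15 over the 63 and -0.03 over all. It was -0.066 in the 12 h libraries alone, -0.070 with the replicate block, -0.023 without the filter and -0.0042 to 0.31 leaving out 1 library, so its sign was not stable either. Of the 81 with a count in these libraries, 8 were higher in both GenX libraries than in all 4 controls (6.15% of 18038 transcripts were) and 11 were lower (8.64% were). The 12 h controls carry the numbers R1 and R2 and both GenX libraries other numbers (R3, R4), so number and treatment cannot be told apart at 12 h.

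ENSMODT00000008201 stood highest against its controls. It was at 0.966 and 1.02 CPM in the 12 h controls, at 1.25 and 1.47 CPM in the 24 h controls and at 9.29 and 20.1 CPM with GenX. Both GenX libraries were above all controls, by a fitted log2 fold change of 4.42 (SE 1.18, adjusted p = 0.495, edgeR). In the time course ENSMODT00000008201 went from 85.9, 126 and 107 CPM at 12 h to 1898, 1790 and 954 CPM at 72 h. ENSMODT00000008242, the transcript with no count in fresh blood, was at 5.71 and 7.65 CPM with GenX and at 0.604, 1.02, 0 and 0.184 CPM in the controls (adjusted p = 0.556, edgeR). ENSMODT00000003509 was lower in both GenX libraries, at 16.6 and 17.6 CPM, than in the controls, at 31.8 and 27.1 CPM at 12 h and 27.6 and 34.0 CPM at 24 h. The log2 fold change was -0.78 (SE 0.387, adjusted p = 0.79, edgeR).

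**Figure D5:**
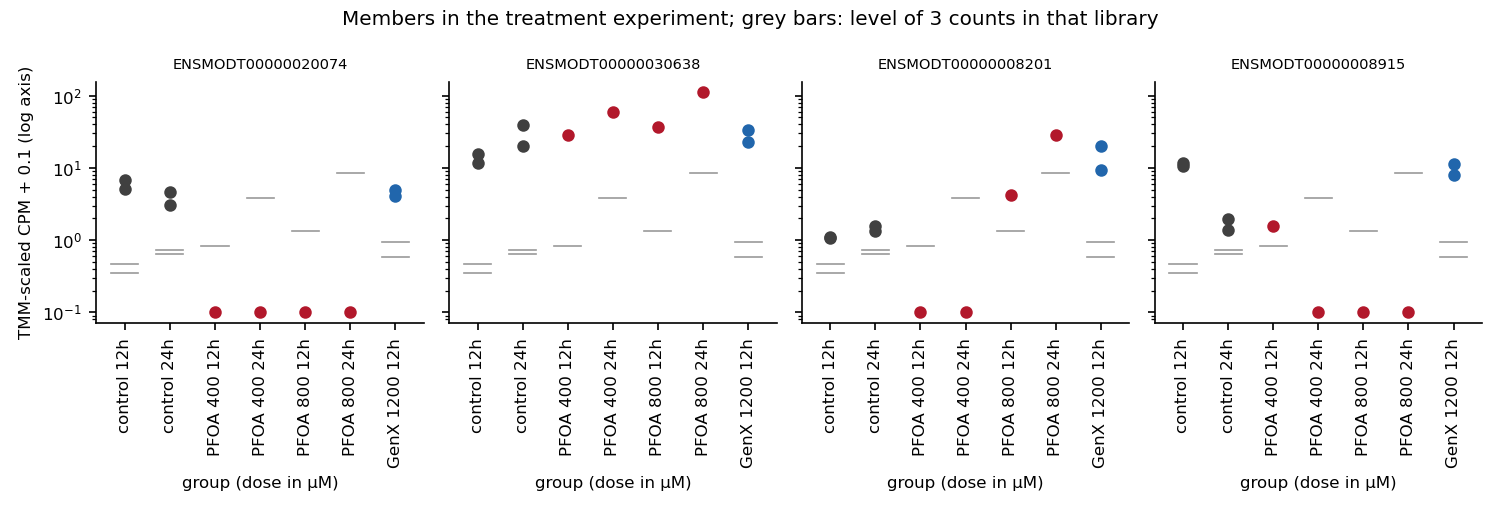
Level of 4 transcripts in each library of the treatment experiment (TMM-scaled CPM + 0.1, log axis, 1 point per library), grouped by treatment, dose in µM and time, with grey bars at the level of 3 counts in that library. ENSMODT00000020074 and ENSMODT00000008915 sit at 0 in the PFOA libraries except 1 value of 1.48 CPM, ENSMODT00000030638 is above both controls of its time in every PFOA library, and ENSMODT00000008201 stands above its controls with GenX and at 800 µM PFOA.

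Between the PFOA doses, 800 against 400 µM, 0 of the 63 tested were called by edgeR (2 of 12565, 0.0159%, in all). At an unadjusted p under 0.05 there were 6 of 63 (9.52%), against 7.12% of all, and DESeq2 called 2, against 0.653% in all. Without the filter 2 of the 82 were called, against 0.867% of all. The median log2 fold change was 0.70 over the 63 and -0.06 over all. It was 0.73 with 4 transcripts set to the bound of 3 counts and the 2 without a count at either dose left out, and -0.084 without the 800 µM library at 24 h. Leaving out the 800 µM library at 12 h gave 11 calls, 9 higher and 2 lower, against 12.7% of all transcripts. That leaves 1 library at 800 µM, of 366269 counts, which is assumed to vary like the other groups. ENSMODT00000008201 had no count at 400 µM at either time and was at 4.13 CPM at 12 h and 28.3 CPM at 24 h at 800 µM (adjusted p = 0.382 by edgeR and 0.0154 by DESeq2). ENSMODT00000008915 was at 1.48 CPM at 400 µM and 12 h and had no count in the other 3 PFOA libraries (adjusted p = 0.704, edgeR).

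PFOA and GenX were given at different doses, so they were not tested against each other. At 12 h, ENSMODT00000030638 was at 28.3 and 36.4 CPM with 400 and 800 µM PFOA and at 32.9 and 22.7 CPM with 1200 µM GenX. ENSMODT00000008915 was at 1.48 and 0 CPM with PFOA, against 7.99 and 11.3 CPM with GenX and 11.47 and 10.6 CPM in the 12 h controls.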

How the data were processed

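The authors deposited 1 table of raw counts per transcript for each experiment, whole numbers that were not normalized. RNA was selected by poly(A) and the library kit keeps strand, per the labels' protocols. Tools named in the submitters' processing notes are TopHat2 2.1.1 with Bowtie2, bedtools 2.30.0, Trimmomatic 0.36, FastQC 11.5, R 4.1.2 and edgeR. Build, annotation release and use of strand in counting are not given in the sources, so overlapping, antisense and near-identical transcripts are uncertain. Of 22063 rows, 22049 carried an Ensembl transcript identifier and 14 another name, and 4 upper-case copies with identical counts were removed. Of values from 1 to 12 counts, 71.0% and 70.9% were even in the 2 tables, so single counts may not be independent. The counting unit is not stated in the sources used here. The design text counts 14 time course libraries, and the labels give 15.

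Counts were tested with the quasi-likelihood F test of edgeR 4.0.16 (R 4.3.3, limma 3.58.1), with TMM scaling, filterByExpr (minimum count 10) and Benjamini-Hochberg adjustment over all transcripts tested. The time course was 1 model of 15 libraries with time. The treatment experiment was 1 model of 10 libraries with treatment and time, plus a dose term for the PFOA doses, and the 24 against 12 h step used the 4 controls alone. Each SE given with an edgeR value was derived as the absolute log2 fold change divided by the square root of the F statistic. DESeq2 1.42.0 was an alternative. The test was first run on simulated data with independent libraries, and nothing here is drawn from that run. Deviations at 24 and 48 h correlated within an identifier (r = 0.494, 0.514 and 0.552) and not between identifiers (-0.383 to -0.0113), so the identifiers of the titles were taken to pair these libraries.

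The words low and high in the titles were read as the smaller and larger protocol doses. The transcripts, lists and tests were chosen with earlier results of these data known. Named transcripts are the 2 highest at 12 h, the 2 largest ratios of 12 to 0 h, the 2 largest and smallest of 72 to 12 h and, per test, up to 2 called in each direction with at least 5 CPM in the higher group, or the 1 nearest to passing per direction. Others named were chosen after their values were seen.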

Additional observations from a re-analysis of the deposited data

Results flagged for a closer look

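In groups of 4 libraries, 38 sets of values of the named transcripts were checked for 1 library far from the rest, and 7 stood out by the ratio of its gap to the range. Chance alone marks about 1 in 20 groups of like libraries, and groups with most values at 0 are marked by a single count. The libraries of these groups were not alike. The controls mix 12 and 24 h, and each PFOA library is the only library of its dose and time. A library that stood out cannot be told apart from a difference by dose or time. Among the controls, ENSMODT00000026369 (ratio 1, 0.339 CPM in the 12 h control R2) and ENSMODT00000026390 (ratio 1, 0.368 CPM in the 24 h control R3) had a count in 1 library only. Among the PFOA libraries, the one at 800 µM and 24 h was high for ENSMODT00000008201 (0.854, 28.3 CPM), ENSMODT00000008242 (0.957, 11.3 CPM) and ENSMODT00000026369 (0.913, 5.66 CPM). A level of 3 counts in that library corresponds to 8.49 CPM. The PFOA library at 400 µM and 24 h was high for ENSMODT00000021322 (0.92, 12.2 CPM), and the one at 400 µM and 12 h for ENSMODT00000008915 (ratio 1, 1.48 CPM).

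From 12 to 24 h, 4 named transcripts moved one way in both 24 h controls and the opposite way in all 3 identifiers of the time course. The log2 fold changes in the controls were 2.67 for ENSMODT00000000053, 0.64 for ENSMODT00000004231, 2.18 for ENSMODT00000017557 and -2.74 for ENSMODT00000008915. The difference between the experiments was not tested.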

How the results depend on the processing

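In brackets is the percent called of those tested, within the 82 and over all transcripts. For 48 against 24 h the main fit called 0 of the 82. DESeq2 called 5 (6.1% and 5.65%) and the replicate block 4 (4.88% and 2.96%). Leaving out 1 library there gave 0 to 3 (at most 3.66% and 1.98%). For PFOA against control, DESeq2 called 8 (12.7% and 5.84%) and a fit without the low-count filter 8 (9.76% and 3.49%). Leaving out 1 library there gave 0 to 6 (at most 8.57% and 0.876%). For GenX, DESeq2 called 1 (1.59% and 0.501%) and a fit without the filter 1 (1.22% and 1.07%). For the PFOA doses, DESeq2 called 2 (3.17% and 0.653%) and a fit without the filter 2 (2.44% and 0.867%). Leaving out 1 PFOA library leaves 1 at its dose, so calls of those dose fits are not listed here. The median log2 change of 24 against 12 h in controls, 0.04, was -0.066 without the filter, 0.42 in the model of all 10 libraries and -0.39 to 0.21 leaving out 1 control. The PFOA median, 0.12, was 0.83 in the 24 h libraries alone, -0.22 in those of 12 h, -0.19 without the filter and -0.25 to 0.32 leaving out 1 library. The GenX median, 0.15, was -0.066 in the 12 h libraries alone, -0.070 with the replicate block, -0.023 without the filter and -0.0042 to 0.31 leaving out 1 library. The median of 48 against 24 h was 0.04 to 0.37 leaving out 1 library. The dose median was -0.084 to 1.05 leaving out 1 library. The cause of these differences was not tested. The replicate block, by the numbers of the titles, changed no other call: it gave 0 called for PFOA, 0 for GenX and 0 for the doses. It was not run for the 24 against 12 h step in controls, which left no residual degrees of freedom. The controls had 11 to 17 calls leaving out 1 library, against 11% to 21% of all transcripts, and 2 higher and 14 lower without the 24 h control R3. Where 1 library of a group was left, it was assumed to vary like the others. The number of transcripts chosen was 101 without scaling factors (76 of the 82 among them), 78 with RLE size factors and 75 with 1 CPM added to each mean. It was 74 to 85 leaving out 1 identifier. Of the 82, 71 were kept without A0036, 67 without A0039 and 71 without A3538. Shallow PFOA libraries limit what can be called there.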
